A study of Rattus norvegicus with 6 samples.

Results

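H4K16la, the lactylation of lysine 16 on histone H4, was profiled by CUT&Tag in rat tenocytes, the resident fibroblasts of tendon that make its collagen matrix. The comparison took 1 library of untreated wild-type cells (control) and 1 library of wild-type cells given 20 mM lactate, out of 6 libraries for 3 lactylation marks. The members were chosen as all peaks of these 2 deposited lists, 40681 in control and 62563 with lactate, which makes 103244 of the 315825 peaks of the series. A peak was called shared when it overlapped a peak of the other list by at least 1 bp, and otherwise control-only or lactate-only. Both groups were cultured in 1640 medium, and the labels give neither the age, sex or strain of the rats, nor the duration of the lactate treatment, nor whether the cells came from 1 animal or several. The protocol names an IgG antibody as control, but no IgG library was among those analysed here. With 1 library per group no difference has a replicate check, so no p-value was computed, and all intervals are 95% intervals for counting error only. Positions are on build rn7, counted from 1, and they carry no gene annotation because the gene table at hand describes another assembly (GRCr8). For the same reason promoters of tendon, glycolytic and acyltransferase genes were not analysed here, and no marker gene could be used to check the cell type.

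Histone lactylation places a lactyl group on a lysine side chain, and the group derives from lactate, the end product of glycolysis. Lysine 16 lies in the amino-terminal tail of H4, and its better known acetylation loosens the packing of neighbouring nucleosomes and is found in active chromatin. Acyltransferases such as p300 can write lactylation, and histone deacetylases can remove it. CUT&Tag uses an antibody to guide a transposase to marked nucleosomes, and the fragments it frees are read. Where many fragments pile up, a peak is called, and its summit is the base of highest pileup.

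The deposited lists hold 3 measures that are used throughout. The fold is read as the pileup at the summit over the local background, with 1 added to each. The −log10 q is the peak caller's confidence (a q of 0.05 is the weakest peak kept, with 1.30 as the lowest value in either list). The summit offset is the distance from the peak's start to its summit. These 3 measures are the authors' values for single peaks and serve here as descriptions within a list. Read totals were not among the data analysed. In their place a genome-wide background was inferred from the fold and p of each list, 1.53 fragments over a base in control and 2.84 with lactate, a ratio of 1.86. The inference, also of local backgrounds, assumes that no IgG library entered peak calling, and whether one did is not given. The gap between the 2 backgrounds touches every comparison of the libraries. A peak on the genome-wide background needed a summit pileup of at least 7 fragments in control, which is a fold of 3.16, but of 10 fragments with lactate, a fold of 2.86. The log2 ratio of these weakest callable folds, lactate over control, was −0.14.

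More H4K16la peaks were listed with lactate, but most peaks of either list lay where the other had none. Of the control peaks, 17270 (42.5%, Wilson interval 42.0 to 42.9) were shared and 23411 (57.5%) were control-only. Of the lactate peaks, 17318 (27.7%, 27.3 to 28.0) were shared and 45245 (72.3%) were lactate-only. Measured in bases, shared peaks covered 10.3 of 20.96 Mb in control and 10.7 of 31.7 Mb with lactate. Control-only peaks covered 10.6 Mb and lactate-only peaks 21.1 Mb. The shared peaks were nearly all matched singly. In 17052 cases exactly 1 control peak met exactly 1 lactate peak, 105 control peaks met more than 1 lactate peak, and 58 lactate peaks met 2 control peaks. The control peak with the most partners, on chromosome 10 from 80254880 to 80256179, was 1300 bp wide and met 3 lactate peaks of 324 to 537 bp. It had a −log10 q of 8.31, above the 1.76 to 4.22 of its partners. The reverse was seen on chromosome 1 from 170730854 to 170731947, where a lactate peak of 1094 bp (−log10 q 6.29) met 2 control peaks of 303 and 365 bp.

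Condition-only peaks were the weaker and narrower ones in both lists. In control, shared peaks had a median width of 542 bp (quartiles 406 and 726) and control-only peaks one of 411 bp (344 and 525). With lactate the shared peaks had a median width of 562 bp (421 and 748) and the lactate-only peaks 418 bp (345 and 539). The narrowest peak was 290 bp in control and 285 bp with lactate, and shared and condition-only peaks alike reached that lower limit. The widest shared peaks reached 2945 bp in control and 3054 bp with lactate, the widest condition-only peaks 2247 and 2079 bp. Peaks of at least 1 kb made up 7.48% of the shared and 1.00% of the control-only peaks, and with lactate 8.27% of the shared and 1.51% of the lactate-only peaks. Since a peak is shared once 1 bp overlaps, a wide peak has more room to be called shared.

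The fold showed the same order. Its median was 4.29 (quartiles 3.68 and 5.06) at shared control peaks and 3.68 (3.32 and 4.15) at control-only peaks. With lactate it was 3.81 (3.28 and 4.52) at shared and 3.31 (2.96 and 3.72) at lactate-only peaks. Folds were thus lower in the lactate list for shared and condition-only peaks alike, whereas −log10 q, which rises with depth, was not. Median −log10 q was 4.60 at shared control peaks, 2.73 at control-only peaks, 4.94 at shared lactate peaks and 3.08 at lactate-only peaks. Peaks with a −log10 q under 3 made up 57.3% of the control-only and 46.9% of the lactate-only peaks, against 22.4% and 17.6% of the shared ones. At the upper end, a −log10 q of at least 10 was reached by 92 control-only peaks (0.393%) and 389 lactate-only peaks (0.860%), against 2018 and 2234 shared peaks (11.7% and 12.9%).

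**Figure D1:**
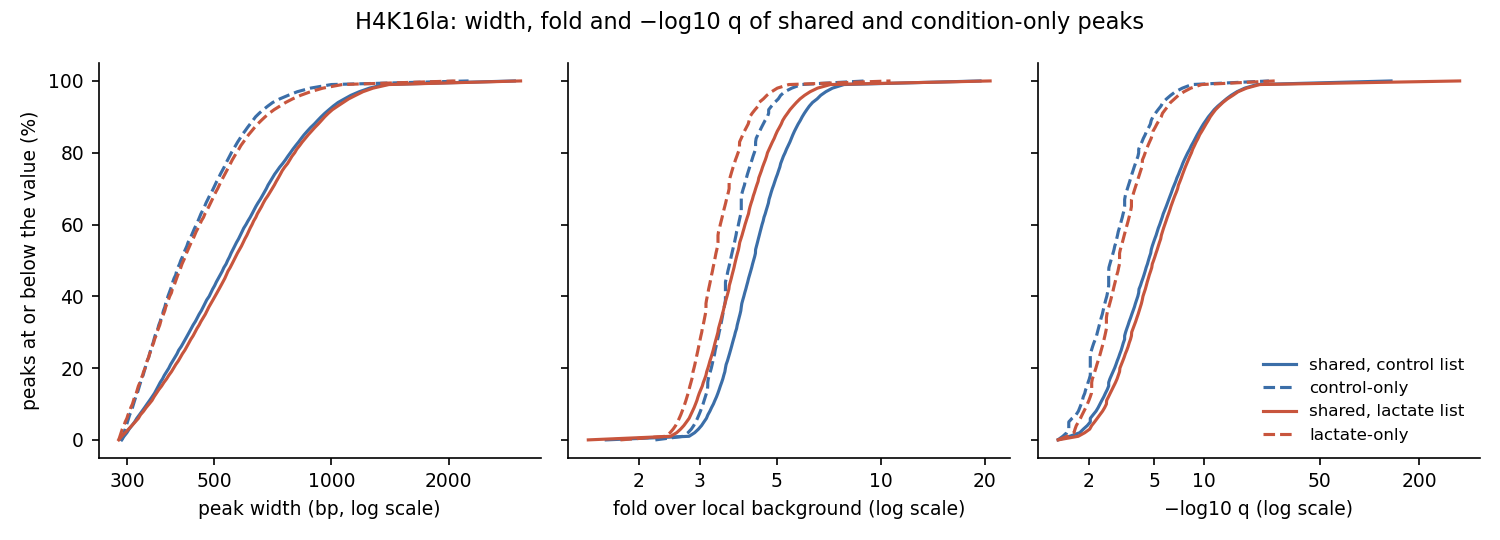
Cumulative share of peaks (y axis, %) at or below a given width, fold over local background or −log10 q (x axes, log scale), for shared (solid) and condition-only (dashed) peaks of the control (blue) and lactate (red) lists. The dashed curves lie left of the solid ones in every panel (median width 411 and 418 bp against 542 and 562 bp), and in the fold panel the lactate curves lie left of the control curves of the same class.

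The share of peaks found in both lists climbed steadily with peak strength. In control it rose from 16.5% (Wilson interval 15.4 to 17.6) of the peaks with a −log10 q under 2 to 66.5% (65.1 to 67.8) between 5 and 7 and to 99.0% (96.5 to 99.7) of the 206 peaks at 20 or more. With lactate the same bins gave 8.91% (8.17 to 9.70), 45.6% (44.5 to 46.7) and, for 238 peaks, 98.3% (95.8 to 99.3). At equal −log10 q a control peak more often had a lactate partner than the reverse, but the lactate list is the longer one. Between the 20000 strongest peaks of each list both shares were 42.0%. Lists of equal length whose peaks meet nearly singly must give equal shares. The intervals of the 2 lists did not overlap in any bin below 20. Just 2 control-only and 4 lactate-only peaks reached 20, and they are given here although this cutoff was chosen after their values were seen. The control-only peaks were on chromosome 9 from 81670357 to 81670906 (24.7) and, at 21.9, chromosome 1 from 153441838 to 153442542. The lactate-only peaks were on chromosome 16 from 20232336 to 20232934 (26.7), chromosome 6 from 62488376 to 62489370 (22.4), chromosome 2 from 51610267 to 51610630 (21.3) and chromosome 12 from 21315596 to 21315915 (20.97).

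Width added to strength. Among control peaks with a −log10 q from 5 to 10, 60.6% of those under 400 bp, 67.1% of those from 400 to 600 bp and 81.4% of the wider ones were shared. The lactate peaks of that strength gave 38.2%, 46.6% and 64.6%. The local background moved with sharing too. Of the 4839 control peaks on the genome-wide background 774 were shared (15.0 to 17.1%), and of those where the local background was 2 to 3 times as high, 56.8% (55.8 to 57.7). With lactate these shares were 10.6% (9.84 to 11.3) and 41.7% (40.8 to 42.6). The local background was at least 2 times the genome-wide one at 50.4% of the shared and 25.8% of the control-only peaks, and at 30.7% and 16.01% of the shared and lactate-only peaks. Shared H4K16la peaks thus lay more often over a higher local background. Their median summit pileup was also higher, 16 against 11 fragments in control and 22 against 16 with lactate. Whether a peak's own fragments enter its local background is not given, and the part of that background in the sharing was not tested.

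**Figure D2:**
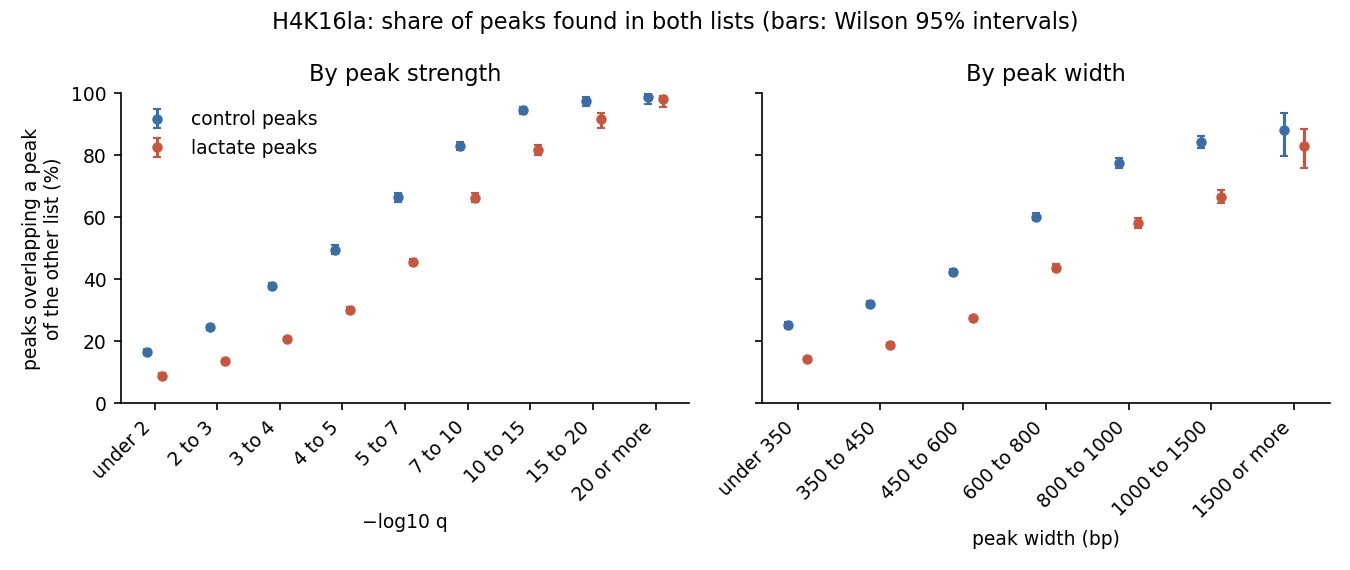
Percent of H4K16la peaks that overlap a peak of the other list (y axis), by −log10 q (left) and by width in bp (right), for control (blue) and lactate (red) peaks; bars are Wilson 95% intervals. Both series climb from under 17% in the weakest bin to about 98.3% or 99.0% in the strongest, with control above lactate in each bin of −log10 q below 20.

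Equal numbers of peaks on both sides remove the difference in list length. Counts of peaks with some partner still use the full other list, and for them the difference remains. Of the 100 control peaks of highest −log10 q, 99 met some lactate peak, but 40 met 1 of the 100 strongest lactate peaks. Among the strongest 1000 of each list, 978 control and 924 lactate peaks had some partner, and 426 of either list had a partner among the strongest 1000 of the other. For the strongest 5000 the matched share was 45.4%, and for the strongest 20000 it was 42.0%. The strongest places were therefore found with and without lactate, while the order among them differed between the libraries.

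At the 17052 places where 1 control peak met 1 lactate peak, the fold was lower with lactate. Its median was 4.29 in control and 3.81 with lactate. The median log2 ratio within pairs was −0.17 (interval for the median −0.17 to −0.16; quartiles −0.38 and 0.04), close to the −0.14 by which the weakest callable fold differed between the libraries. The fold was lower with lactate at 70.0% of the pairs. A fold at least 1.5 times lower was found at 1558 pairs, 9.14% of those compared, and one at least 1.5 times higher at 194, or 1.14%. Because the pairs are the comparison itself, these percentages are also its background. Over the genome-wide background of its own library, the summit pileup was 10.4 times as high in control and 7.74 times with lactate at the median, a log2 ratio of −0.51 (quartiles −0.80 and −0.22), and lower with lactate at 88.8% of the pairs. On that scale, to which no 1 is added, the weakest callable peak differed by −0.38. The 1 added within the fold weighs more at the lower background of control. The raw pileups behind these medians were 16 fragments in control and 22 with lactate, so a single pair rests on few fragments.

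The median was below 0 in every bin of mean strength, but not in every bin set by the strength of 1 peak alone. With pairs ordered by the mean −log10 q of their 2 peaks, the median log2 ratio of the fold was −0.18 under 3 (2265 pairs), −0.16 from 3 to 5 (6428 pairs), −0.16 from 5 to 10 (6507 pairs), −0.18 from 10 to 20 (1692 pairs) and −0.12 at 20 or more (160 pairs). The pileup ratio widened in the same order, from −0.42 to −0.68. With pairs ordered by the control peak alone, the fold ratio went from 0.04 under 3 (3827 pairs, 43.6% lower with lactate) to −0.34 at 20 or more (200 pairs). Ordered by the lactate peak alone it went the other way, from −0.40 under 3 (2976 pairs) to 0.0082 from 10 to 20 (1982 pairs) and 0.04 at 20 or more (232 pairs, 41.8% lower). A bin set by the value of 1 peak of a pair also sets the side on which that peak stands, so these values are descriptions. The local background relative to the genome-wide one was also lower with lactate, with a median log2 ratio of −0.21 (quartiles −0.42 and −0.0027). Across the pairs the local background agreed best between the libraries (Spearman's rho 0.85), while the fold (0.50), the −log10 q (0.49) and the width (0.31) agreed less; the points share their 2 libraries, and these values are descriptions.

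**Figure D3:**
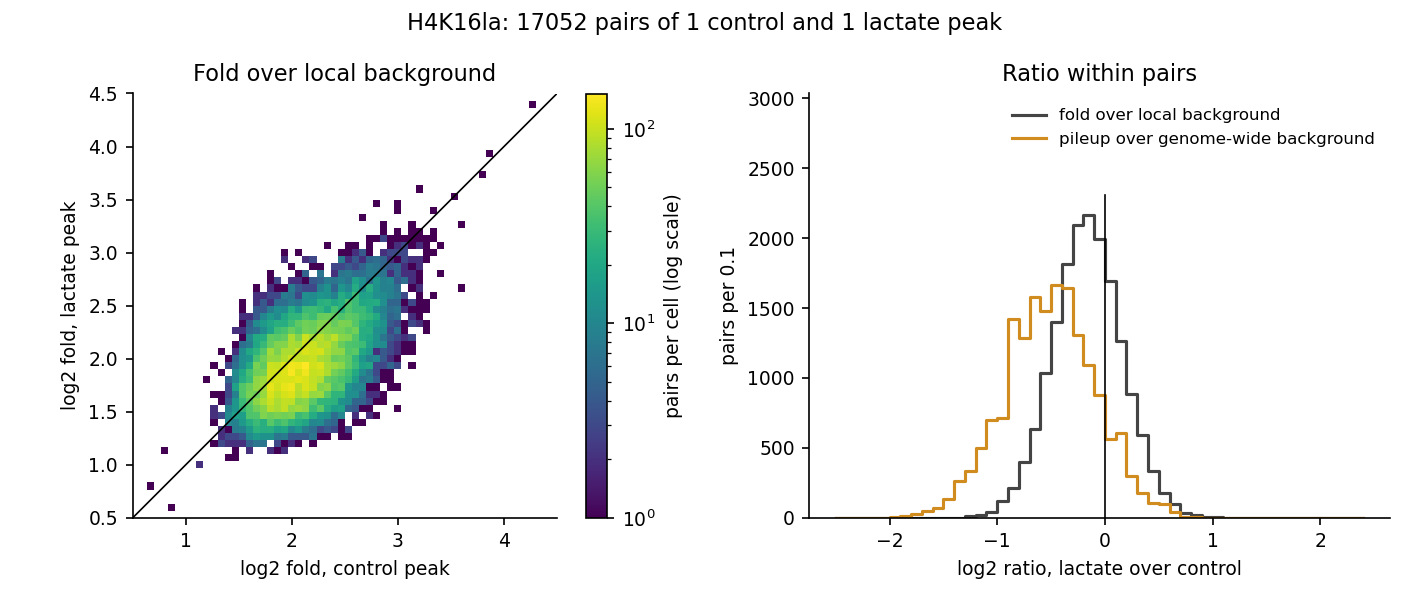
Left: log2 fold over local background of the lactate peak (y axis) against that of the control peak (x axis) for 17052 pairs, coloured by pairs per cell on a log scale, with the line of equal values. Right: number of pairs (y axis) by log2 ratio of lactate over control (x axis) for the fold over local background (grey) and for the pileup over the genome-wide background (orange, uneven because pileups are whole numbers); the medians lie left of 0, at −0.17 and −0.51, and 70.0% and 88.8% of the pairs are lower with lactate.

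The peak of highest −log10 q in control was also the highest with lactate. Its position was chromosome 1 from 154403659 to 154404083. It had a summit pileup of 153 fragments and a fold of 19.4 in control and a pileup of 388 and a fold of 20.7 with lactate, and its summit was at the same base in both. Such a narrow, very tall peak stood apart from the rest, with a −log10 q of 135 in control and 352 with lactate. The next, on chromosome 1 from 209640320 to 209641191, had a fold of 7.76 in control and 5.73 with lactate, and its local background was 16.02 and 15.5 times the genome-wide one. On chromosome 3 from 2252159 to 2253244 the fold was 5.72 in control and 5.41 with lactate, over a local background of 25.4 and 20.6 times the genome-wide one. The fourth, on chromosome 17 from 28947467 to 28948165, had a fold of 12.1 in control and 9.51 with lactate without such a background (3.44 and 2.53 times). No list of artefact-prone regions was applied, so whether the first of these reflect the mark was not tested.

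Among pairs with a −log10 q of at least 10 in either list, the fold rose most on chromosome 6 from 75884377 to 75884777, from 3.45 in control (8 fragments at the summit) to 7.12 with lactate (30 fragments), a log2 ratio of 1.05. On chromosome 3 from 131829208 to 131830028 it went from 3.87 (18 fragments) to 7.85 (54 fragments), with summits 249 bp apart. The pair on chromosome 4 from 76840548 to 76841015 had 3.73 (12 fragments) and 7.50 (36 fragments). That on chromosome 19 from 22364597 to 22364902 had 3.74 and 7.55, but its summits were 747 bp apart and the peaks overlapped by 63 bp. In these 4 pairs the control peak was weak, with a −log10 q of 1.96 to 4.33, and the lactate peak strong, from 14.4 to 27.4.

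The largest drop was on chromosome 3 from 151589139 to 151589624, where the fold was 8.11 in control (31 fragments) and 2.84 with lactate (14 fragments), a log2 ratio of −1.51. Here the lactate peak was 298 bp wide and the control peak 486 bp. On chromosome 11 from 84124827 to 84125438 the fold went from 6.81 (25 fragments) to 2.80 (15 fragments), with summits 1 bp apart. Chromosome 13 from 67726682 to 67727220 gave 6.70 (24 fragments) and 2.77 (12 fragments) at the same summit base, and chromosome 15 from 20522967 to 20523757 gave 7.30 (31 fragments) and 3.07 (16 fragments). At these 4 places the raw pileup itself was lower in the lactate library although the genome-wide background of that library was the higher one. They are the extremes of 17052 pairs, and no single pair has a replicate.

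Shared peaks agreed in position more closely the stronger they were. The median overlap was 393 bp, and it covered at least 50% of the shorter peak in 89.5% of the pairs. In 40.6% of the pairs the shorter peak lay wholly inside the longer. The summits were 128 bp apart at the median (quartiles 41 and 253 bp), within 50 bp in 28.5% and at the same base in 394 pairs. By mean −log10 q the median summit distance fell from 188 bp under 3 to 101 bp from 5 to 10 and to 33 bp at 20 or more. The control summit lay inside the lactate peak in 83.9% of pairs and the lactate summit inside the control peak in 82.5%. At the edge of the overlap rule, 335 pairs overlapped by less than 50 bp, with a median −log10 q of 2.99 in control and 3.12 with lactate. Just outside it, 201 control-only and 210 lactate-only peaks lay within 50 bp of the other list, with medians of 2.74 and 3.08.

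Summits of condition-only peaks lay nearer the peak ends. The median offset was 252 bp at shared control peaks and 190 bp at control-only peaks, and 260 and 198 bp at shared and lactate-only peaks. Relative to width, 63.5% of the shared and 54.1% of the control-only peaks had the summit in the middle 50% of the peak, and with lactate 65.2% of the shared and 56.8% of the lactate-only peaks. A summit in the outermost 10% at either end was found in 10.4% and 17.6% of the control classes and in 9.23% and 15.1% of the lactate classes. In each of the 4 classes somewhat more summits lay before the middle of the peak than after it, 51.9% to 54.2%. Strand is not recorded for the peaks, so this side of the peak is the one of lower coordinates.

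**Figure D4:**
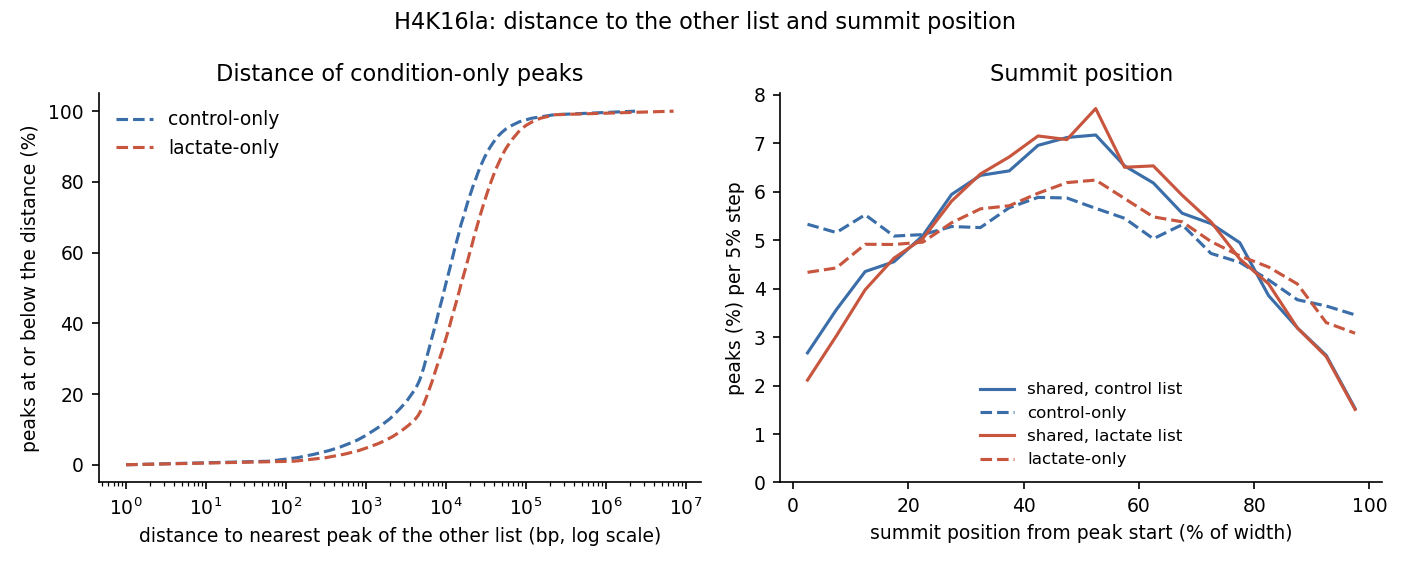
Left: cumulative share of control-only (blue) and lactate-only (red) peaks (y axis, %) by distance to the nearest peak of the other list (x axis, bp, log scale; distances under 1 bp drawn at 1). Right: percent of peaks (y axis) by summit position from the peak start in steps of 5% of the width (x axis), for shared (solid) and condition-only (dashed) peaks. Control-only peaks lie nearer to a lactate peak (median 9722 bp) than lactate-only peaks to a control peak (15090 bp), and condition-only summits spread more evenly along the peak.

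Most condition-only peaks lay more than 1 kb from any peak of the other list, shared or not. Within 1 kb were 8.40% of the control-only and 4.72% of the lactate-only peaks. Of the 1 kb steps up to 10 kb the first still held the most peaks, 1965 and 2135. The shares expected from peak density alone were not computed. Signal too weak to be listed in the other library cannot be seen in these data. A control-only peak lay 9722 bp from the nearest lactate peak at the median (quartiles 4888 and 19226 bp), and 5.17% lay within 500 bp. For lactate-only peaks the nearest control peak was 15090 bp away (7054 and 30958 bp), and 2.84% lay within 500 bp. The lactate list is the denser one, which shortens the first of these distances. Strong condition-only peaks, with a −log10 q of at least 10, lay at similar distances. The 92 in control had a median distance of 11072 bp and the 389 with lactate one of 13778 bp, and 4 and 13 of them lay within 1 kb.

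The condition-only peaks of highest fold in control were on chromosome 9 from 81670357 to 81670906 (fold 8.999, 43 fragments at the summit, nearest lactate peak 47510 bp away), chromosome 4 from 10344786 to 10345181 (8.37, 24 fragments, 2679 bp), chromosome 10 from 2441525 to 2441886 (8.34, 22 fragments, 15414 bp) and chromosome 9 from 46826246 to 46826813 (8.30, 20 fragments, 78919 bp). With lactate they were on chromosome 16 from 20232336 to 20232934 (10.7, 40 fragments, nearest control peak 5964 bp away), chromosome 6 from 62488376 to 62489370 (9.63, 36 fragments, 54371 bp), chromosome 16 from 20031138 to 20031713 (8.33, 31 fragments, 7807 bp) and chromosome 3 from 724148 to 724966 (7.81, 32 fragments, 13704 bp). The first 3 lactate-only peaks stood on the genome-wide background, which holds the fold of a given pileup at its highest.

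The widest condition-only peaks were of modest strength. In control they were 2247 bp on chromosome 1 from 58672900 to 58675146 (fold 3.61, −log10 q 4.45), 1726 bp on chromosome 1 from 43590357 to 43592082 (4.48, 6.42) and 1599 bp on chromosome 1 from 234823557 to 234825155 (4.77, 5.06). The second of them ended 71 bp from a lactate peak. With lactate they were 2079 bp on chromosome X from 76199769 to 76201847 (2.59, 3.71), 2066 bp on chromosome 15 from 26796506 to 26798571 (2.91, 6.66) and 2032 bp on chromosome X from 4203614 to 4205645 (4.07, 4.76). The first of the lactate peaks was 375848 bp from any control peak.

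Strong condition-only peaks far from the other list were few. In control the most distant lay 824997 bp from a lactate peak, at chromosome 20 from 15953506 to 15954391, with a fold of 6.05 and a −log10 q of 10.4. It was the only 1 of the 92 beyond 100 kb. Next came chromosome 9 from 46826246 to 46826813 (78919 bp) and then chromosome 8 from 95089882 to 95090508 (fold 5.98, −log10 q 15.4, 52187 bp). With lactate, 13 of the 389 lay beyond 100 kb. The farthest were chromosome 3 from 27921800 to 27922324 (222517 bp, fold 6.99, −log10 q 14.2), chromosome X from 34029940 to 34030521 (186871 bp, 6.25, 10.0) and chromosome 4 from 68901668 to 68902579 (186549 bp, 6.33, 12.1).

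Lactate summits were then thinned by calculation to the genome-wide background of control. Reads, the shape of the background and the search for peaks could not be matched this way. The probability that each lactate peak would still pass after its summit fragments were kept at the ratio of the backgrounds was taken from the binomial distribution and summed. At the lowest deposited −log10 p of control, 3.33, the expected number was 41278 lactate peaks against 40681 in control, a log2 ratio of 0.021 in place of 0.62. Of the shared lactate peaks 79.9% would be expected to remain, and of the lactate-only peaks 60.7%, which is 27449 of 45245. With 4 as the lowest −log10 p the ratio became −0.27, and 19982 lactate-only peaks would be expected against 41831 found. With 10 it became −1.65, with 1901 lactate peaks expected and 5966 found in control. The ratio thus depended on the threshold, from near 0 to well below it. The calculation keeps each original summit and adds no place below the authors' threshold, which lowers the expected number, while summits picked for their height carry upward counting error, which raises it. Which of these prevails was not tested. In the other direction, control summits were scaled up to the lactate background. A −log10 p of at least 4 was then reached by 100% of the shared and 100% of the control-only peaks. The medians were 12.7 and 8.54. Scaling up raises every −log10 p, and the lowest in control was already 3.33. The 100% in both classes was thus set by the calculation and does not show which control-only places could be detected with lactate. The scaled summits keep their upward counting error as well, and the part of depth in the sharing was not tested.

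Peaks were spaced widely, and the next peak was shared slightly more often after a shared peak than after a condition-only one. The gap to the next peak of the same list was 27705 bp at the median in control (quartiles 12969 and 57082 bp) and 18648 bp with lactate (9238 and 36755 bp). In control the gap was 24933 bp between 2 shared peaks and 31164 bp between 2 control-only peaks, and with lactate 17406 bp between 2 shared and 19469 bp between 2 lactate-only peaks. In control the next peak was shared after 45.1% of the shared and 40.5% of the control-only peaks. With lactate these shares were 31.1% and 26.4%. Joining peaks less than 1 kb apart left 40084 places in control and 61304 with lactate, and no such place held more than 3 peaks, so the peak caller listed H4K16la as isolated narrow peaks and not in dense groups.

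Every chromosome had more peaks in the lactate list. Across the 20 autosomes control had 13.1 peaks per Mb on chromosome 2 to 24.0 on chromosome 12, with a median of 15.7, and lactate a median of 24.8. A megabase here counts from the first to the last peak of either list on the chromosome. The log2 ratio of peak numbers ran from 0.52 on chromosome 12 to 0.76 on chromosome 15. It was lower on the peak-dense autosomes (Spearman's rho −0.63 with control density over 20 autosomes, a description in which both measures contain the control count). The shared share ran from 39.8% (37.1 to 42.6) on chromosome 18 to 46.3% (43.4 to 49.2) on chromosome 12 in control, and from 24.3% (22.6 to 26.1) on chromosome 15 to 32.4% (30.1 to 34.7) on chromosome 12 with lactate. The median log2 ratio of the fold at pairs was below 0 on all 20 autosomes, from −0.21 on chromosome 12 to −0.14 on chromosome 11.

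The sex chromosomes stood apart from the autosomes. Chromosome X held 6.61 control and 9.89 lactate peaks per Mb, and 27.2% (24.6 to 30.0) of its control peaks and 18.0% (16.1 to 20.0) of its lactate peaks were shared, under the range of the autosomes. Its local background was also low, 1.15 times the genome-wide one at the median control peak, where the autosomes ran from 1.44 to 2.06. Its log2 ratio of peak numbers, 0.58, and its median log2 ratio of the fold, −0.17, lay within the autosomal range. Chromosome Y had 4 control and 16 lactate peaks, with 2 shared in each list. The stronger shared place, from 8613857 to 8614624, had 35 fragments at the summit and a fold of 5.92 in control, and 80 fragments and a fold of 6.84 with lactate. How many copies of X and Y the cells carried is not given in the labels, so fewer copies and less of the mark cannot be told apart.

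**Figure D5:**
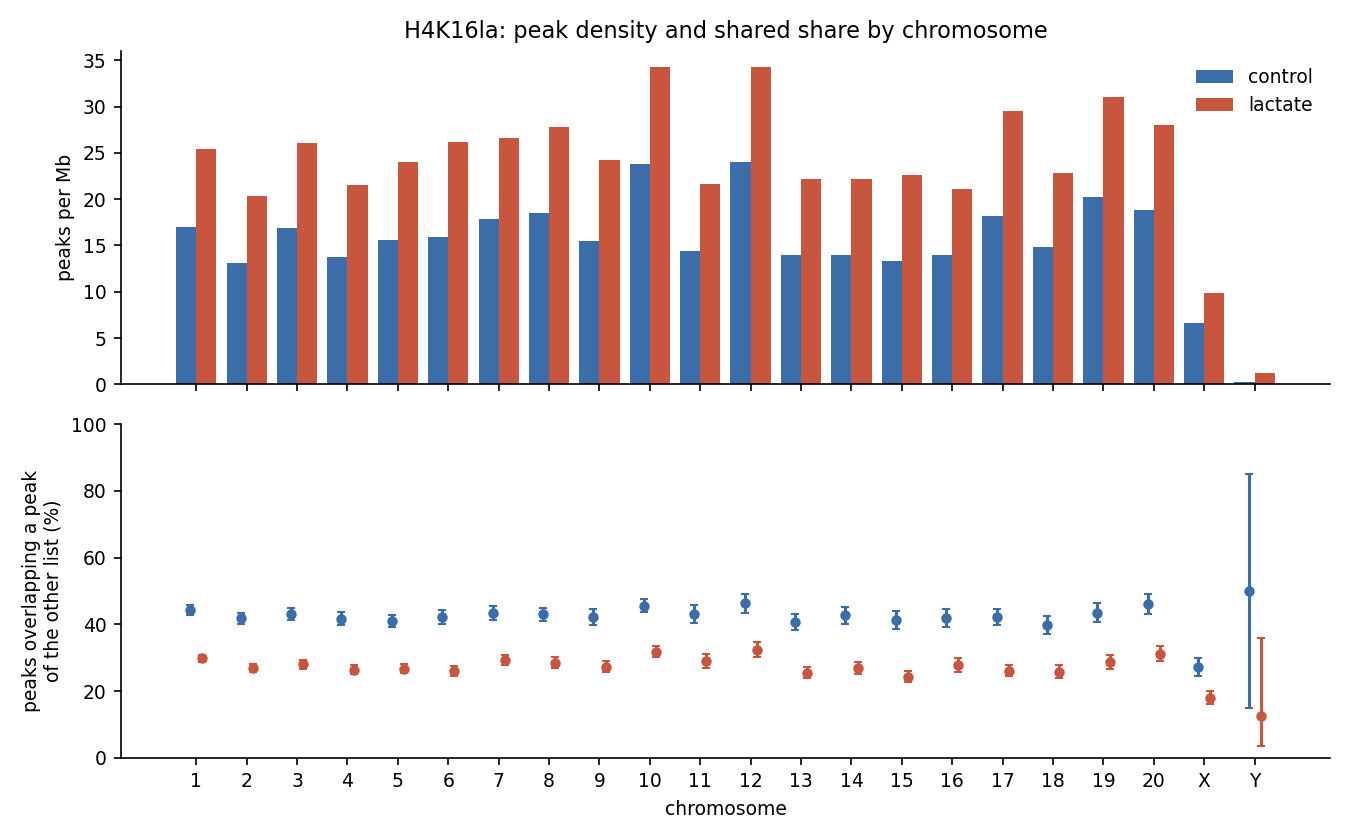
Top: H4K16la peaks per Mb (y axis, bars from 0) on each chromosome (x axis) in control (blue) and with lactate (red). Bottom: percent of the peaks of each list that overlap a peak of the other list (y axis), with Wilson 95% intervals. Lactate bars are higher on every chromosome, shared shares of autosomes lie between 39.8% and 46.3% in control and between 24.3% and 32.4% with lactate, and chromosome X lies below them at 27.2% and 18.0%.

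Windows of 1 Mb gave a similar picture. The lactate list had more peaks in 2144 of the 2469 windows with any peak, control in 207, and 118 were equal. Windows with 80 or more peaks of both lists together had a log2 ratio of 0.47 and shared 50.3% of their control peaks, windows with 20 to 39 peaks had 0.73 and 36.7%, and the 678 windows with fewer had 0.65 and 27.8%. The shared share thus rose with density, while the ratio was highest in the class next to the sparsest. Of the condition-only peaks, 65.9% were lactate-only over the whole genome, and in the 1244 windows with at least 30 condition-only peaks the quartiles were 61.3% and 71.1%. The highest share was found on chromosome 3 from 64000001 to 65000000, with 32 lactate-only and 4 control-only peaks. Chromosome 15 from 6000001 to 7000000 had 28 and 4, and chromosome 4 from 150000001 to 151000000 had 35 and 6. Control-only peaks were in the majority in 20 of the 1244 windows, led by chromosome 1 from 82000001 to 83000000 with 22 control-only and 16 lactate-only peaks, chromosome 1 from 127000001 to 128000000 with 18 and 14, and chromosome 15 from 45000001 to 46000000 with 19 and 15. These are the extremes of many windows with small counts.

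Set beside the other marks, whose lists were handled the same way, H4K16la had the opposite order of list lengths. In control 34.3% of the H3K9la peaks and 29.6% of the H4K8la peaks had a lactate partner, and 42.5% of the H4K16la peaks. With lactate 45.8%, 42.6% and 27.7% had a control partner. For each mark nearly as many peaks were shared in 1 list as in the other, 21241 and 21321 for H3K9la, and 18163 and 18208 for H4K8la. The shorter list therefore has the higher share by arithmetic, and the order of the shares only restates list length. Differences between marks were not tested.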

How the data were processed

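H4K16la CUT&Tag peaks of 2 libraries were compared, 1 of untreated rat tenocytes and 1 with 20 mM lactate. Groups came from the sample titles; a free-text field that names lactate for every library was set aside. Per the submitters' processing notes the authors used FastQC, cutadapt, Bowtie2, deepTools and MACS2 on build rn7; versions and settings are not given there. Peaks were deposited per library. The deposited fold is read as a ratio of summit pileup to local background, with 1 added to each. The deposited −log10 p and −log10 q are the peak caller's, and the deposited score is 10 times the −log10 q without its decimals, with rounding exceptions. The remaining deposited columns are positions.

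Overlaps, distances and windows were computed with scipy 1.17.1, pandas 2.3.3 and numpy 2.4.6 under Python 3.11.15, and plotted with matplotlib 3.10.9. Summit pileup and local background were recovered for all 103244 peaks, to within 0.002 of −log10 p. The fold was taken as (pileup + 1) over (background + 1) and p as the Poisson tail above the pileup. This reading is inferred from the values and assumes that no IgG library entered peak calling. The most frequent background of a list, held by 4839 and 6765 peaks, was taken as genome-wide. Overlap and pileup searches were tested on simulated data. Read depth is unknown, and intervals (Wilson for shares, binomial ranks for medians) cover counting error only. No test between conditions was made.

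Named regions follow rules on fold, −log10 q, width, distance, partners and windows. The members, rules and alternatives were chosen with earlier results of these data known. No paired analysis was possible because each group has 1 library.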

Additional observations from a re-analysis of the deposited data

Results flagged for a closer look

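The H4K16la peak number moved the opposite way to the other marks between control and lactate. Its log2 ratio of lactate over control was 0.62, against −0.41 for H3K9la and −0.52 for H4K8la. Each value comes from 1 library per condition, and the difference between marks was not tested. The inferred genome-wide background of the H4K16la lactate library was 1.86 times that of its control. When summit pileups with lactate were reduced by that factor, its ratio was 0.021 at the lowest deposited −log10 p of control, −0.27 at a −log10 p of at least 4 and −1.65 at 10. The part of the background in the difference between marks was not tested.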

How the results depend on the processing

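The log2 ratio of H4K16la peak numbers, 0.62, was 0.56 at a −log10 q of at least 5, 0.31 at 10, 0.60 in covered bases and 0.021 with lactate brought to the control background. At that background it turned to −0.27 for a −log10 p of at least 4 and −1.65 for 10, 2 alternatives chosen after seeing the data. The share of control peaks that were shared, 42.5%, was 53.7% at a −log10 q of at least 5 in both lists, 50.4% at 10, 37.9% with 50% of the shorter peak overlapping, 29.8% with 50% of each, 28.3% with summits within 200 bp and 47.3% with a gap of up to 1 kb. The lactate share, 27.7%, was 36.3%, 40.6%, 24.7%, 19.4%, 18.4% and 31.1% under the same settings, and 42.0% among the 20000 strongest peaks of each list. The median log2 ratio of the fold at pairs, −0.17, was −0.14 with a −log10 q of at least 10 in either list, and −0.51 as pileup over the genome-wide background. The other 3 alternatives moved their results by less than counting error. The control share exceeded the lactate share under each of these settings but the equal list lengths, where both were 42.0%. Peaks met nearly singly, so the shorter list must have the higher share and equal lists equal shares. This order of the shares therefore restates list length and is no check of the result. No replicate could be left out, and no paired analysis was possible because each group has 1 library. Pileups were lower in the control library, and their part in the shares was not tested.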

Other observations

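Gaps between H4K16la peaks of the same list were scarcer in each 1 kb step up to 5 kb than from 5 to 6 kb. In the lactate list 876 gaps measured from 3 to 4 kb, 1544 from 4 to 5 kb and 2667 from 5 to 6 kb, after which the numbers fell slowly to 2081 from 9 to 10 kb. Control showed the same step with 282, 637 and 1167 gaps and 1002 from 9 to 10 kb. Gaps under 1 kb numbered 1259 with lactate and 597 in control, more than from 3 to 4 kb. The step was also there between the lists, with 883 control-only peaks at 3 to 4 kb from a lactate peak and 1432 at 5 to 6 kb, and with 1093 and 2049 lactate-only peaks at these distances from a control peak. Between the lists, however, the fullest 1 kb step up to 10 kb was the first. It held 1965 control-only and 2135 lactate-only peaks. No gap within a list was under 291 bp in control or 286 bp with lactate, each 1 bp more than the narrowest peak. The settings of the peak caller are not given, and their part in the spacing of the listed peaks was not tested.

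The longest run of lactate-only peaks with no other peak between them held 16 peaks on chromosome 5 from 70940000 to 71227403, with a median fold of 3.39. The next held 15 on chromosome 14 from 33792678 to 34000829. Control-only runs reached 7 peaks, on chromosome 4 from 107578754 to 109296284, where all 7 stood on the genome-wide background at 4.08 peaks per Mb, and on chromosome 17 from 69056294 to 69679592.

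A local background of at least 10 times the genome-wide one was found at 14 control and 20 lactate peaks, and 4 of the latter were lactate-only, named here after their values were seen. They lay on chromosome 3 from 2229536 to 2230186 (42.9 times, fold 1.77), chromosome 19 from 13774327 to 13774787 (20.0 times, fold 1.94), chromosome 1 from 209642290 to 209642799 (14.1 times, fold 1.88) and chromosome 16 from 20299490 to 20299780 (12.03 times, fold 2.24), each within 2297 bp of a control peak.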
